A study of Mus musculus with 8 samples.

Results

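The CC chemokines Ccl2, Ccl3, Ccl4, Ccl6, Ccl7, Ccl8, Ccl9, Ccl12 and Ccl24 were examined in macrophages of the mouse heart. These 9 genes were taken by symbol from the 24516 genes of the deposited count table, and 8 of them had enough counts to be tested. RNA was sequenced from 4 libraries of endocardially derived tissue macrophages (EcTM) and 4 libraries of tissue macrophages without that origin (non-EcTM). The hearts came from 28-day-old C57BL/6 mice, and the cells were sorted by flow cytometry. All mice had the genotype Nfatc1Cre/+; Rosa26Tomato reporter/+, so both groups carry the same Cre allele and the same reporter. In these mice Cre is made where Nfatc1 is active, as in the endocardium, and the reporter marks those cells and their descendants for good. EcTM are therefore defined by activity of the Cre driver in the cells or their ancestors, whether or not they still express Nfatc1. The EcTM libraries are called E591, E592, E604 and E606. The non-EcTM libraries are called N591, N592, N604 and N606, and E and N libraries of the same number were compared as pairs. What a number stands for, such as 1 animal or a litter, is not in the labels, so p-values here reflect only how far these libraries spread.

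CC chemokines are small secreted proteins with a pair of adjacent cysteines near the N terminus. They bind G protein-coupled receptors on leukocytes and guide the migration of these cells along gradients held on matrix and cell surfaces. In the heart, macrophages are a known source of Ccl2 and Ccl7, which draw monocytes through the receptor Ccr2. Ccl3 acts on leukocytes through Ccr1, among other receptors, and Ccl24 draws eosinophils through Ccr3. Ccl6, Ccl9 and Ccl12 are rodent genes.

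The test between EcTM and non-EcTM was passed by 1 of 7667 tested genes (0.013%) and by 0 of the 8 tested chemokines. Their 95% intervals for the fold of EcTM over non-EcTM lay between 0.648, the lower end for Ccl24, and 1.49, the upper end for Ccl7. Ccl6 and Ccl9 held most of the counts of the 9 genes in every library, and Ccl8 had 0 to 24 counts in a library. Ccl2, Ccl6 and Ccl9 differed among the 4 library numbers. That test was passed by 3.04% of all tested genes and 6.77% of the 1980 genes at least as abundant as Ccl24. The lowest mean of Ccl2 and the highest means of Ccl6 and Ccl9 lay in the pair E591/N591.

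The 8 libraries held 2152425 to 2937464 counts in genes. A gene with 0 counts in a library could still stand at the level of 3 counts, which was 0.99 to 1.43 CPM (counts scaled to the same library total by TMM factors). Such a limit covers counting error only. Macrophage markers were abundant, since 11 of 12 had counts and their summed level was 26471 to 28081 CPM in EcTM, against 24366 to 27558 CPM in non-EcTM. The remaining one, Itgam, was listed at 0 in all libraries, as were the housekeeping gene Rac1 and the abundant macrophage protease gene Ctss. A gene listed at 0 is therefore not shown to be absent. The Cre driver gene Nfatc1 was also listed at 0 in all 8 libraries and cannot check the labels. Endothelial markers summed to 338, 50.5, 32.5 and 234 CPM in E591, E592, E604 and E606. Their sums were 899, 87.7, 148 and 119 CPM in N591, N592, N604 and N606. E592 and N592 had 260 and 307 counts of the Y-linked gene Ddx3y and the other libraries had 1 to 7, so sex went with the number.

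Of the 9 genes, 8 lie in a pair of clusters on chromosome 11 (GRCm38, the assembly that mm10 names). The first cluster holds Ccl2 from 82035577 to 82037452, Ccl7 from 82045712 to 82047525, Ccl12 from 82101845 to 82103399 and Ccl8 from 82115185 to 82116799. These genes encode the monocyte chemoattractant proteins. The second cluster holds Ccl9 from 83572917 to 83578636, Ccl6 from 83587886 to 83593087, Ccl3 from 83647843 to 83649378 and the curated transcript of Ccl4 from 83662584 to 83664683. Ccl24 lies alone on chromosome 5 from 135569935 to 135573123. The gene bodies hold 3 exons each, or 4 in Ccl6 and Ccl9. The whole RefSeq span of Ccl4 runs from 83648624 to 83664683 and so begins within Ccl3, which lies on the opposite strand. No exon of the 9 genes overlapped an exon of another gene in GENCODE M21, but the annotation behind the counts is not known. The paralogs are related in sequence. Over aligned bases the transcripts of Ccl6 and Ccl9 were 72.1% identical and those of Ccl3 and Ccl4 68.1%. Those of Ccl8 and Ccl12 were 66.9% identical, those of Ccl2 and Ccl12 65.5% and the other pairs 54.0% to 64.3%. Among all 36 pairs of members, Ccl6 and Ccl9 shared 1 stretch of 25 bases and no other pair shared any.

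Promoters of 5 members were in the RefSeq table for GRCm38.p6 (Ccl3, Ccl6, Ccl8, Ccl9 and Ccl12), each as 250 bases before and 50 bases after the transcription start. Ccl6 and Ccl9 are shown because their levels went together across libraries, Ccl12 as a member of the other cluster and Ccl3 as a gene next to Ccl6 that followed another pattern. All are written 5′ to 3′ on the strand of the gene. Capitals mark matches to any of 5 motifs searched on both strands.
Ccl6, chr11:83593038-83593337, minus strand: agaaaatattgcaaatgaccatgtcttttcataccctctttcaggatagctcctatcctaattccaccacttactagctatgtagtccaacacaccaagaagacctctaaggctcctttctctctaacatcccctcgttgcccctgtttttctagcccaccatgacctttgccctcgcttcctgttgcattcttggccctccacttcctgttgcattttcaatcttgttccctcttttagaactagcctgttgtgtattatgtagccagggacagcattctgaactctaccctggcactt
Ccl9, chr11:83578587-83578886, minus strand: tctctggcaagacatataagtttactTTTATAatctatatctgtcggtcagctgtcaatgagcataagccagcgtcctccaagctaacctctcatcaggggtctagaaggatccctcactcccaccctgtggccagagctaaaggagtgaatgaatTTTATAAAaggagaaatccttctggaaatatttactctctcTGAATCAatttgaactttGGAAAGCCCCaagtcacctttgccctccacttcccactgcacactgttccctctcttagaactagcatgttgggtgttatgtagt
Ccl12, chr11:82101595-82101894, plus strand: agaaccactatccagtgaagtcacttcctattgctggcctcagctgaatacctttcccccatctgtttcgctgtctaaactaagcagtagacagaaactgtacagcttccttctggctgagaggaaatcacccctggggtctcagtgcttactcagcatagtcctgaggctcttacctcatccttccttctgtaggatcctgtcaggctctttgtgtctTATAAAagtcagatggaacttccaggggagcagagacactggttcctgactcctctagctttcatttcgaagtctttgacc
Ccl3, chr11:83649329-83649628, minus strand: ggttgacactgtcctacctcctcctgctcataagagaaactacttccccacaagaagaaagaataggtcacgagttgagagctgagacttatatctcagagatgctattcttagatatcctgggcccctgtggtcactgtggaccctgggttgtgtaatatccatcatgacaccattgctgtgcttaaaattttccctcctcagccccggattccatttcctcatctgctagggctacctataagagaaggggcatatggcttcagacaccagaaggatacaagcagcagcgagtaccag

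The motifs were those of NF-kB, AP-1 (TGANTCA), the interferon response element, C/EBP (TTGCNNAA) and the TATA box (TATAAA). They occurred in 8.46%, 7.81%, 3.44%, 10.8% and 13.6% of 32851 promoters of this length, in that order. The Ccl9 window held an NF-kB match with its first base at -35, on the strand opposite to the gene, and an AP-1 match at -53 from the start. It also held a TATA box match at -92 on the strand of the gene. TATA box matches on the opposite strand lay at -94, overlapping that one, and at -224. The Ccl12 window held a TATA box at -31, and the Ccl8 window, not printed, held one at -32. In the Ccl6 and Ccl3 windows these letters did not occur. The Ccl6 and Ccl9 windows were 62.9% identical over 251 aligned bases. Those of Ccl12 and Ccl8 were 63.9% identical, and the other pairs of windows were 51.1% to 59.7% identical. A match describes the letters and shows no binding.

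Levels were compared between genes per kilobase of transcript. The 9 members took 0.366% ± 0.0388 of all counts in EcTM and 0.393% ± 0.0268 in non-EcTM (SD, n = 4 each). Of these counts, Ccl6 and Ccl9 together held 69.5% on average in EcTM and 71.8% in non-EcTM. Per kilobase, Ccl6 stood highest at 941 ± 124 CPM in EcTM, against 1043 ± 185 CPM in non-EcTM, above Ccl2 in 8 of 8 libraries. Ccl2 followed at 531 ± 154 and 551 ± 103 CPM per kilobase in EcTM and non-EcTM. Ccl9 stood at 414 ± 76.5 CPM per kilobase in EcTM and 440.3 ± 63.0 in non-EcTM, below Ccl2 in 6 of 8 libraries. Ccl3 stood at 363 ± 41.5 in EcTM and 336 ± 88.3 in non-EcTM, and was below Ccl9 in 6 of 8. The order of Ccl2, Ccl9 and Ccl3 was thus not kept in every library.

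The lower members per kilobase were Ccl12, Ccl4 and Ccl7, then Ccl24 and Ccl8. Ccl12 stood at 201 ± 60.2 CPM per kilobase in EcTM and 176 ± 39.7 in non-EcTM. It lay above Ccl4 in 5 of 8 libraries, so the order of Ccl12 and Ccl4 was not kept in every library. Ccl4 stood at 187 ± 39.5 in EcTM and 158 ± 14.0 in non-EcTM, above Ccl7 in 7 of 8. Ccl7, at 134 ± 54.5 in EcTM and 111 ± 22.5 in non-EcTM, lay above Ccl24 in 8 of 8. Ccl24 stood at 62.7 ± 10.7 in EcTM and 75.5 ± 18.2 in non-EcTM. It is the 1 member with 2 curated transcripts, so its value per kilobase depends on the transcript used. Ccl8 stood lowest, at 7.13 ± 9.35 in EcTM and 3.40 ± 4.48 in non-EcTM.

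Setting EcTM against non-EcTM asked whether the kinds of macrophage differ in their chemokine transcripts. At an adjusted p under 0.05, 0 of the 8 tested members were called by edgeR's quasi-likelihood test with pairs as a block, which called 1 of 7667 genes (0.013%). The members' adjusted p ran from 0.907 to 0.976. At an unadjusted p under 0.05 there was 1 member, Ccl6, against 5.4% of all genes. The 4 libraries of EcTM did not lie apart from the 4 of non-EcTM in any tested member, against 2.7% of all genes, and 0 of 8 went one way in 4 of 4 pairs, against 14.2%. Of the 8 members 4 had a log2 fold change above 0 and 4 below it. Their median log2 fold change was 0.03, beside -0.01 over all tested genes, and the median absolute value was 0.15, beside 0.20 over all tested genes. Paired fits with DESeq2, which called 26 of 2660 genes (0.977%), and with limma-voom, which called 19 of 7667 (0.248%), also called 0 members, as did the edgeR fit without pairing, which called 0 genes.

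**Figure D1:**
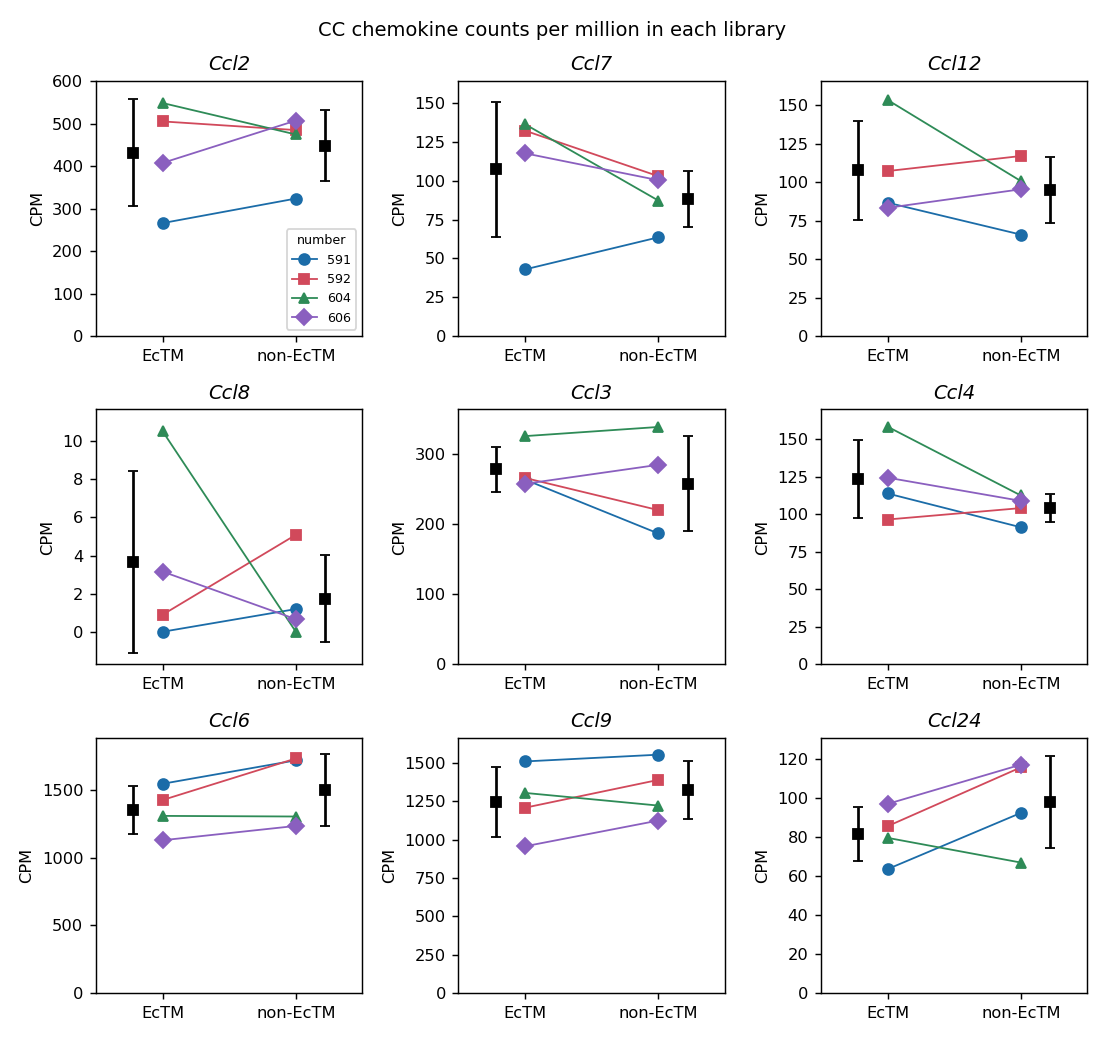
CPM (y axis) of the 9 CC chemokines in EcTM (left) and non-EcTM (right). Lines join the 2 libraries of a number, and black squares with bars give the group mean ± SD (n = 4). The groups overlap in every panel, and Ccl2 and Ccl7 are lowest in the pair E591/N591 in both groups.

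In the first cluster, Ccl2 encodes the main ligand of Ccr2 and draws monocytes. It stood at 266, 505, 549 and 407 CPM in E591, E592, E604 and E606, and at 324, 485, 475 and 507 CPM in N591, N592, N604 and N606. The groups overlapped, with E591 lowest in EcTM and N591 lowest in non-EcTM. The mean was 432 ± 125 CPM in EcTM, against 448 ± 83.8 CPM in non-EcTM, and the log2 fold change was -0.08 ± 0.10 (SE) with a 95% interval of -0.28 to 0.12.

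Ccl7 encodes a related ligand of Ccr2 and of other receptors. It stood at 42.9, 132, 136 and 118 CPM in E591, E592, E604 and E606, and at 63.5, 103, 87.2 and 100.3 CPM in N591, N592, N604 and N606. EcTM stood above non-EcTM in 3 of 4 pairs and below it in the pair E591/N591, where both libraries were low. The log2 fold change was 0.19 ± 0.19 (interval -0.19 to 0.58), and it was 0.41 without the pair E591/N591 and 0.03 without the pair E604/N604.

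Ccl12, the rodent monocyte chemoattractant that also signals through Ccr2, stood at 86.7, 107, 154 and 83.3 CPM in E591, E592, E604 and E606. In N591, N592, N604 and N606 it stood at 65.9, 117, 101 and 95.4 CPM. E604 was the highest library and the groups otherwise covered a like range. Between groups, the log2 fold change was 0.17 ± 0.17 (interval -0.19 to 0.53) with all pairs. It was 0.02 without the pair E604/N604 and 0.29 without E606/N606.

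Ccl8, whose product in mice acts on Ccr8, was the scarce member. It had 0, 2, 24 and 8 counts in E591, E592, E604 and E606, and 3, 13, 0 and 2 counts in N591, N592, N604 and N606. E604 alone had 24 counts, and the pairs did not share a direction. It did not pass the filter on low counts. Fitted without that filter, its log2 fold change was 0.51 ± 2.01. A count of 0 allowed up to 1.43 CPM in E591 and 1.31 CPM in N604.

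In the second cluster, Ccl3 encodes the inflammatory chemokine MIP-1alpha. It stood at 263, 266, 325 and 257 CPM in E591, E592, E604 and E606, and at 187, 220.0, 338 and 285 CPM in N591, N592, N604 and N606. The pair E604/N604 was the highest pair in both groups. Its log2 fold change was 0.14 ± 0.12 (interval -0.10 to 0.38). It was 0.02 without the pair E591/N591 and 0.23 without E606/N606.

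Ccl4, which encodes MIP-1beta and is often induced together with Ccl3, stood at 114, 96.5, 158 and 124 CPM in E591, E592, E604 and E606. It stood at 91.3, 104, 113 and 109 CPM in N591, N592, N604 and N606. EcTM were higher in 3 of 4 pairs and spread more widely, with a mean of 123 ± 26.0 CPM against 104 ± 9.26 CPM in non-EcTM. Its log2 fold change of 0.22 ± 0.16 had an interval of -0.10 to 0.55, and was 0.13 without the pair E604/N604 and 0.34 without E592/N592. The count ratio of Ccl3 to Ccl4 within a library ran from 2.04 to 3.01.

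Ccl6 encodes a chemokine that mouse macrophages make without stimulation. It stood at 1549.7, 1429, 1312 and 1131 CPM in E591, E592, E604 and E606, and at 1724, 1737, 1307 and 1237 CPM in N591, N592, N604 and N606. EcTM were lower in 3 of 4 pairs, and the pair E604/N604 had nearly equal libraries. The mean was 1356 ± 178 CPM in EcTM, against 1501 ± 266 CPM in non-EcTM. The log2 fold change was -0.14 ± 0.06 (interval -0.27 to -0.01), with an unadjusted p of 0.0381 in the edgeR test and an adjusted p of 0.907. At the interval's lower end the level in EcTM would be 0.828 of that in non-EcTM.

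Ccl9, a ligand of Ccr1 also known as MIP-1gamma, stood at 1511, 1209, 1306 and 957 CPM in E591, E592, E604 and E606. In N591, N592, N604 and N606 it stood at 1555, 1391, 1223 and 1125 CPM. Both groups had their highest library in the pair E591/N591 and their lowest in the pair E606/N606. Ccl9 had a log2 fold change of -0.10 ± 0.07 (interval -0.24 to 0.04). Ccl6 and Ccl9 kept close to one another, since their count ratio within a library ran only from 1.005 to 1.25.

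Ccl24, known as eotaxin-2 and made by alternatively activated and resident-type macrophages, stood at 63.4, 85.3, 79.4 and 96.7 CPM in E591, E592, E604 and E606. It stood at 92.1, 115, 66.7 and 117 CPM in N591, N592, N604 and N606. EcTM were lower in 3 of 4 pairs, the exception being the pair E604/N604. The log2 fold change was -0.25 ± 0.18 (interval -0.63 to 0.12). It was -0.41 without the pair E604/N604, -0.19 without E592/N592 and -0.16 without E591/N591. Its fold interval, 0.648 to 1.09, was the widest on the low side among the tested members.

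**Figure D2:**
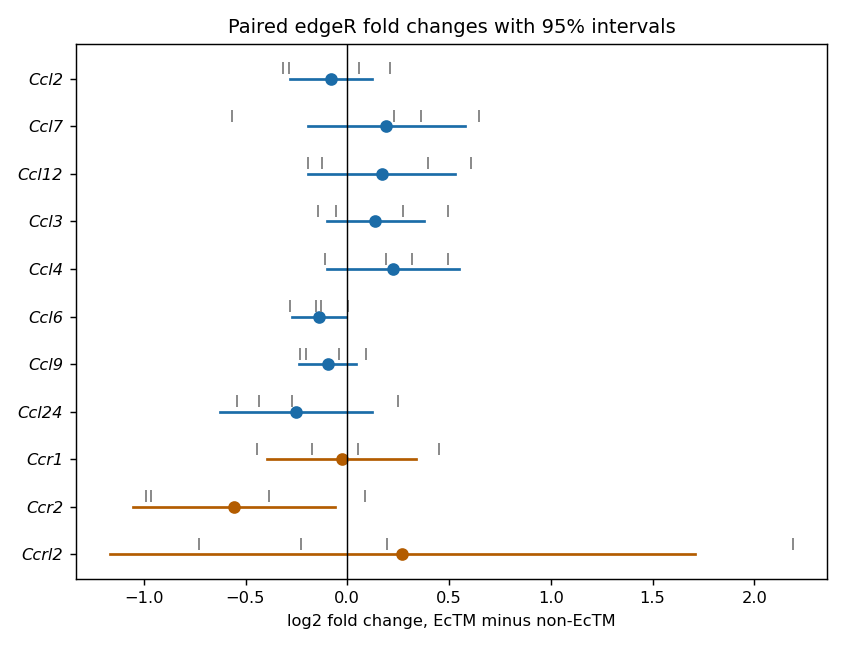
Log2 fold change of EcTM over non-EcTM (x axis) for the 8 tested chemokines (blue) and 3 CC receptors (orange), as points with 95% intervals from the paired edgeR fit. Grey ticks give the log2 ratio of each pair. All chemokine intervals but that of Ccl6 include 0, and no gene shown passed the adjusted threshold.

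The numbers were then compared with one another, in the same edgeR model with the group as the other term. This asked whether libraries of one number shared a level. Ccl2, Ccl6 and Ccl9, or 3 of 8 tested members, passed an adjusted p of 0.05, where 3.04% of all tested genes and 6.77% of the 1980 genes at least as abundant as Ccl24 passed. Such shares were not particular to chemokines. In other lists 4 of 8 tested alternative activation genes, 5 of 12 interferon response genes, 4 of 11 macrophage markers and 3 of 10 resident macrophage genes passed. Fewer passed among inflammatory cytokines (1 of 8), NF-kB genes (0 of 7) and receptor signalling genes (0 of 11). At an unadjusted p under 0.05 there were 6 of 8 members, against 11.2% of all genes. Ccl2 differed by up to 1.74-fold among numbers (adjusted p 0.00226), Ccl9 by 1.48-fold (0.00505) and Ccl6 by 1.38-fold (0.00405). Ccl7 had the widest range, 2.16-fold, and an adjusted p of 0.0518. It passed in 6 of 11 alternatives with the pairing, including those with DESeq2 (0.0106) and limma-voom (0.0113). Its range came from the pair E591/N591, since without that pair it was 0.10 on the log2 scale, against 1.11 with all pairs, and the adjusted p was 0.970. Ccl3, Ccl12, Ccl24 and Ccl4 did not pass, with adjusted p of 0.185, 0.357, 0.610 and 0.743 and ranges of 1.33-fold to 1.66-fold.

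The members did not share an order of numbers. Ccl2 had its lowest mean in the pair E591/N591, at 8.20 log2 CPM, and stood at 8.95, 8.997 and 8.83 log2 CPM in pairs E592/N592, E604/N604 and E606/N606. Ccl7 was likewise lowest in the pair E591/N591, at 5.73 log2 CPM, and at 6.77 to 6.88 in the others. Ccl6 and Ccl9 went the other way. Ccl6 stood at 10.68 and 10.62 log2 CPM in pairs E591/N591 and E592/N592 and at 10.36 and 10.21 in pairs E604/N604 and E606/N606. Ccl9 stood at 10.58 log2 CPM in the pair E591/N591, at 10.34 and 10.30 in E592/N592 and E604/N604, and at 10.02 in E606/N606. Summed over the first cluster, Ccl2, Ccl7, Ccl8 and Ccl12 had 395 CPM in E591 and 612 to 849 CPM in the other EcTM libraries. In non-EcTM, N591 had a sum of 454 CPM, and the others had 663 to 710.0 CPM.

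The calls of Ccl2, Ccl6 and Ccl9 did not all hold when the pair E591/N591 or E606/N606 was left out. Fits without a pair have fewer libraries, and genes called among numbers fell from 233 to between 146 and 179 in them. Without the pair E591/N591, Ccl2 gave an adjusted p of 0.875 and Ccl9 of 0.201, and Ccl6 alone passed. Without the pair E606/N606, Ccl6 gave 0.137 and Ccl9 0.247, and Ccl2 alone passed. Without E592/N592 or E604/N604, all of Ccl2, Ccl6 and Ccl9 passed. The pair E591/N591 was also the pair with the highest endothelial marker sum in each group, 338 CPM in E591 and 899 CPM in N591, with Pecam1, Tek and Emcn listed at 0. Its fibroblast marker sum was 131 CPM in E591 and 203 CPM in N591, against 25.3 to 42.5 CPM in the other 6 libraries. Immediate-early genes, which tissue dissociation can induce, also had their highest sum of each group in this pair, 61923 CPM in E591 and 57186 CPM in N591. The part of these genes and cells in the chemokine differences was not tested. Only E592 and N592 had the Y-linked counts, and without that pair the adjusted p was 0.00793 for Ccl2, 0.00962 for Ccl6 and 0.00556 for Ccl9. The part of sex in these levels was not tested. Animal, litter, sex, sort and library preparation cannot be told apart within a number.

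**Figure D3:**
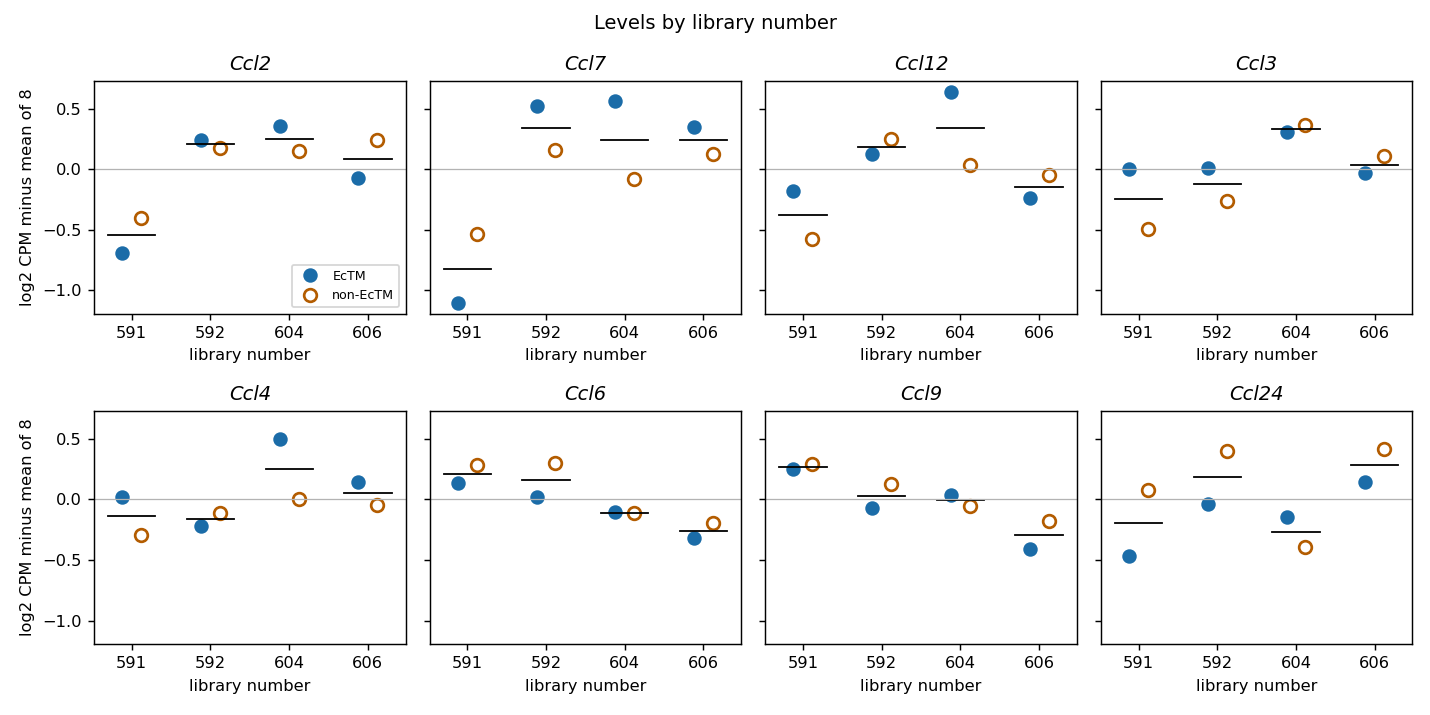
Log2 CPM minus the mean of all 8 libraries (y axis) for 8 chemokines by library number (x axis), with EcTM as filled and non-EcTM as open circles and black bars at the mean of each number. Ccl2 and Ccl7 are low in the pair E591/N591, and Ccl6 and Ccl9 are high in E591/N591 and low in E606/N606.

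The spread of a member among numbers was set beside its spread within pairs. For Ccl6 the SD of the 4 number means was 0.22 log2 CPM and the SD of the 4 pair differences was 0.12, and for Ccl9 the values were 0.23 and 0.15. For Ccl2 they were 0.37 and 0.26, and for Ccl7 0.54 and 0.51. The other tested members had the larger SD within pairs, as in Ccl4 with 0.19 among numbers and 0.25 within pairs. If libraries of a number were independent, the first SD would be about 0.5 of the second. A larger SD within pairs therefore does not show that libraries of a number are independent. The number means spread more than the pair differences in 4 of 8 members, in 19.7% of all tested genes and in 27.0% of the 1980 genes at least as abundant as Ccl24.

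**Figure D4:**
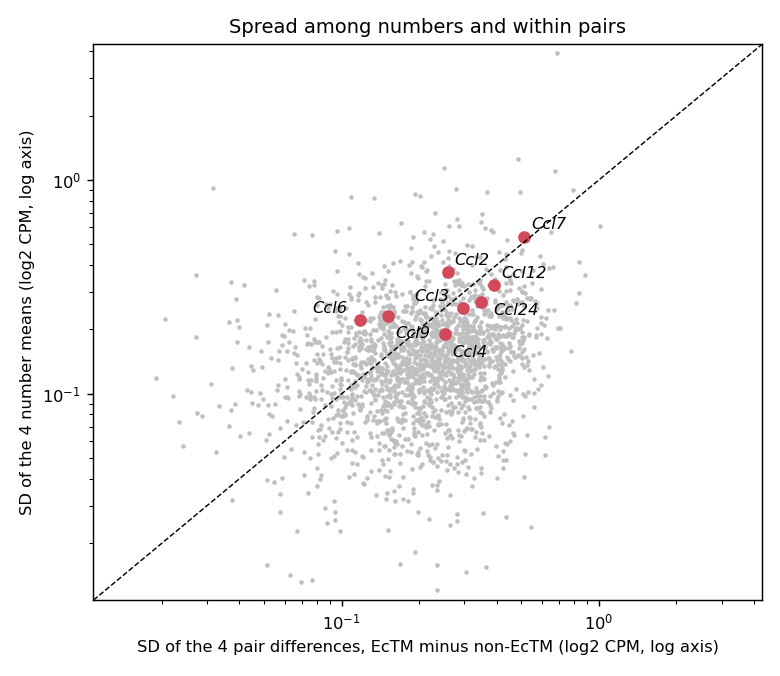
SD of the 4 number means (y axis) against SD of the 4 pair differences (x axis), both of log2 CPM on log axes, for genes at least as abundant as Ccl24 (grey) and the 8 tested members (red). The dashed line marks equal SDs. Ccl2, Ccl6, Ccl7 and Ccl9 lie above the line.

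The receptors of these ligands were read from the same fit. The tested receptors Ccr1, Ccr2 and Ccrl2 gave 0 calls between groups. Ccr2, the monocyte receptor for Ccl2, Ccl7 and Ccl12, stood at 48.6, 53.2, 54.4 and 21.3 CPM in E591, E592, E604 and E606, and at 94.9, 50.1, 71.1 and 42.2 CPM in N591, N592, N604 and N606. It was lower in EcTM in 3 of 4 pairs, with a log2 fold change of -0.56 ± 0.24 and an adjusted p of 0.897. Ccr1, which binds Ccl3 and Ccl9, averaged 95.04 ± 17.7 CPM in EcTM, against 96.0 ± 10.5 CPM in non-EcTM. The decoy-like receptor gene Ccrl2 stood at 9.14 ± 7.05 CPM in EcTM, against 8.03 ± 6.51 CPM in non-EcTM. Ccr3, the receptor of Ccl24, had 63 counts over all libraries and was not tested. The scavenging receptors Ackr1 and Ackr2 had 0 and 3 counts in all.

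Of the 15 other CC chemokines 8 had any count and none was tested. Their summed level was 1.75 to 14.6 CPM in EcTM, against 5.96 to 10.6 CPM in non-EcTM. Among chemokines of other classes 11 of 17 were tested and 0 passed between groups. Cxcl1, a neutrophil attractant, had a log2 fold change of 0.56 ± 0.16 (adjusted p 0.524), and the platelet factor gene Pf4 had -0.17 ± 0.09 (0.921). Cxcl1 and Cxcl2 differed among numbers with adjusted p of 0.0287 and 0.00461, both with the highest mean in the pair E606/N606 and the lowest in E604/N604, as in Ccl24, which did not pass.

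Other lists around the chemokines gave 0 calls between groups. Of 7 tested genes of the NF-kB subunits and their inhibitors, which govern chemokine transcription, 6 had log2 fold changes above 0 and the median was 0.14. Rel had 0.27 ± 0.11 (adjusted p 0.897). Of 7 tested genes for decay of chemokine mRNA, 6 had values above 0 with a median of 0.06, among them Zfp36, encoding tristetraprolin, with 0.11 ± 0.04 (0.751). Of 8 tested alternative activation genes the median was 0.01, and Mgl2 and Retnla had -0.20 ± 0.08 (0.897) and -0.74 ± 0.27 (0.778). Retnla and Mgl2 also differed among numbers, with adjusted p of 0.0317 and 0.000779. In the 8 tested inflammatory cytokine genes the median was 0.11, in 12 interferon response genes -0.02, in 11 chemokine receptor signalling genes 0.06 and in 6 protease genes that can cut chemokines -0.03.

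Markers of other leukocytes were summed, where a gene listed at 0 is again not shown to be absent. Neutrophil markers summed to at most 3.51 CPM in EcTM, against 4.95 CPM in non-EcTM, with S100a9, Ly6g, Elane and Camp listed at 0. Eosinophil and mast cell markers summed to at most 0.476 CPM in EcTM, against 3.93 CPM in non-EcTM, with 7 of 9 listed at 0, Siglecf and Prg2 among them. T and NK cell markers summed to 26.4 to 60.4 CPM in EcTM, against 37.6 to 58.4 CPM in non-EcTM. Dendritic cell markers summed to 22.8 to 41.5 CPM in EcTM, against 22.2 to 32.3 CPM in non-EcTM. Monocyte genes summed to 48.2 to 82.2 CPM in EcTM, against 70.0 to 136 CPM in non-EcTM, with Vcan listed at 0. Markers of structural heart cells gave 0 calls between groups. Of the tested markers, 0 of 5 endothelial, 0 of 5 mural and 2 of 8 cardiomyocyte genes had log2 fold changes above 0, with medians of -1.10, -0.69 and -0.23. Of 3 tested fibroblast genes 2 lay above 0, with a median of 0.25. Of 10 tested resident macrophage genes 2 lay above 0, with a median of -0.19. Among the 11 tested macrophage markers 10 lay above 0, with a median of 0.08. The part of these cells in the chemokine values was not tested. Immediate-early genes were abundant at 48864 to 61923 CPM in EcTM, against 46112 to 57186 CPM in non-EcTM, and 15 of 17 tested had log2 fold changes above 0. Their median was 0.09, beside -0.01 over all tested genes. The sum was highest in E591 and N591. Among numbers 3.04% of all tested genes were called, and 7 of these 17. Their part in the chemokine levels was not tested. In RNA of sorted cells, fewer cells that make a chemokine and less of its RNA per cell cannot be told apart.

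The genes whose log2 CPM went most closely with each member were taken from 6435 tested genes with a mean of at least 3 log2 CPM. The libraries pair by number, so the 8 points are not independent, and with so many genes high values arise readily. Nearest to Ccl2 was Hprt with a Pearson r of 0.97, nearest to Ccl6 was Arrdc3 with 0.97 and nearest to Ccl9 was Tmem160 with 0.95. Nearest to Ccl3 was Nanos1 (0.98), to Ccl4 Ext2 (0.98), to Ccl7 Ankrd28 (0.98), to Ccl12 Whsc1l1 (0.95) and to Ccl24 Gfpt1 (0.95). None of these 8 genes was on a list above.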

How the data were processed

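Total RNA of flow-sorted cells was made into libraries with a stranded, random-primed kit for low input, per the labels' protocols. Per the submitters' processing notes, bcl2fastq 2.17, TopHat, DESeq2 and R 3.2 were used with mm10. The sources used here do not give the counting program, annotation or strand setting. The authors deposited raw counts per gene and library, from which all results come. They also deposited 8 columns headed CPM that hold values on a log2 scale and were not used.

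The members and gene lists were chosen with earlier results of these data known. Groups and numbers were taken from the titles. Genes passing filterByExpr (7667, holding 99.3% of counts) were fitted in edgeR 4.0.16 (R 4.3.3) with TMM, the number as a replicate block and the group, and tested by quasi-likelihood F-test with Benjamini-Hochberg adjustment over all of them at 0.05. SEs were taken from the F statistic. The number effect was tested with 3 coefficients in the same model. After removal of group means, libraries of the same number correlated at 0.12 to 0.19 across genes and other pairs at -0.13 to 0.05, which met the minimum of 0.1 used for pairing. CPM use TMM factors, and log2 CPM of the number means a prior count of 2. DESeq2 1.42.0 and limma 3.58.1 served as alternatives. The fits were tested on simulated data. Transcript lengths and the coordinates of the Ccl4 transcript came from GENCODE M21, and other coordinates and promoters from RefSeq. Protein sequences were not used here. Some genes of the receptor and marker lists are not reported here. Named were all members, receptors of their ligands, up to 4 genes with the smallest p per list, and the genes nearest to each member. Cxcl2 and the marker genes listed at 0 were named after their values were seen.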

Additional observations from a re-analysis of the deposited data

Results flagged for a closer look

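In 24 groups of 4 libraries, 1 value stood far from the other 3. Ccl3 in E604 was 325 CPM, where the other EcTM libraries lay between 257 and 266 CPM. Chance flags about 1 in 20 groups. N604 also had the highest Ccl3 of its group, 338 CPM. Without the pair E604/N604 the paired log2 fold change of Ccl3 was 0.20, beside 0.14 with all pairs and 0.02 without the pair E591/N591.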

How the results depend on the processing

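No member passed between groups in any of the 20 alternatives. The count of all genes called, 1 with the replicate block, was 0 with no replicate block, 0 among genes with 1 curated transcript, 10 with no filter on low counts, 26 in DESeq2 and 19 in limma-voom. It was 1 to 2 when a number was left out of the paired fit and 0 to 1 when a single library was left out of the unpaired fit. The cause was not tested. Signs turned for 4 members, each in unpaired fits that left out 1 library. Without E591 Ccl2 gave 0.13, without N606 Ccl2 gave 0.014, without N591 Ccl3 gave -0.015, without E606 Ccl9 gave 0.017 and without E604 Ccl12 gave -0.037. With the pairing no tested member changed sign over 11 alternatives, or 10 for Ccl24. Genes called among numbers were 233, against 350 with no filter, 442 in DESeq2 and 146 to 179 when a number was left out. Members called among numbers were 3, and 1 to 4 when a number was left out. When a pair was left out, the log2 fold change ran from -0.18 to -0.01 in Ccl2, from -0.19 to -0.09 in Ccl6 and from -0.16 to -0.06 in Ccl9. Ccl8 had 0 to 24 counts in a library and was not tested with the filter. Fold intervals reached 1.49 in Ccl7, 1.46 in Ccl4, 1.44 in Ccl12 and 0.648 in Ccl24.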
